A study of Mus musculus with 4 samples.

Results

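Expression of 9 glycolysis genes was described in DFAT cells of the mouse, which are fibroblast-like and derive from mature fat cells by de-differentiation. The genes were the glucose transporter gene Slc2a1, the enzyme genes Hk1, Hk2, Pfkl, Aldoa, Pgk1 and Ldha, and the regulator genes Pfkfb3 and Pdk1. Their probe sets were taken by gene symbol without use of signal, but the 9 genes were chosen with earlier results of these data known. Counts of them beside all genes are therefore descriptions. The 9 genes were read by 24 probe sets that carried 1 gene symbol each, among 34945 such probe sets for 18193 genes. Treated cells had been treated with the ROCK kinase inhibitor Y-27632, or transfected with an siRNA against Mkl1, whose product binds actin and activates transcription together with SRF (listed as Mrtfa). The controls were cells treated with DMSO and cells transfected with a control siRNA. All cells were grown in DMEM with fetal bovine serum, and the labels give no dose, duration, siRNA sequence or differentiation medium, nor whether the arrays came from separate cultures.

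Total RNA was hybridised to 4 Affymetrix arrays, 1 for each group, so no difference below has a replicate check or a p-value, and precision is limited by that number. Values are log2 RMA signals, that is, background-corrected, quantile-normalised and summarised per probe set by the authors. A difference of 1 on this scale is 2-fold and was the threshold used for counting. Where a gene had several probe sets, the one with the highest mean over the arrays stands for it, and a gene was analysed if its signal reached 5.69, the median of all values, on at least 1 array. That left 11600 genes, and all 9 glycolysis genes were at or above this median on all 4 arrays. Signals of different probe sets cannot be ranked against each other, so each gene was compared only with itself across arrays.

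Glycolysis turns glucose into pyruvate in the cytosol. Pyruvate then becomes lactate, or enters the mitochondrion, where pyruvate dehydrogenase makes acetyl-CoA from it. Flux is set largely by glucose entry, by hexokinase and by phosphofructokinase, and many genes of the route are activated by hypoxia-inducible factor 1. In fat cells, glucose carbon also supplies glycerol phosphate for triglyceride and acetyl-CoA for fatty acid synthesis.

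The targeted transcript Mrtfa had a signal of 7.70 with Mkl1 siRNA against 8.55 with control siRNA, a difference of -0.85. All 10 adipocyte marker genes were higher with each treatment, with a median signal of 10.41 with Y-27632 against 7.93 with DMSO, and of 10.57 with Mkl1 siRNA against 8.20 with control siRNA. All 11 fibroblast and stromal markers reached the filter on at least 1 array, although Lum, a matrix proteoglycan, lay below it with Mkl1 siRNA and with control siRNA. Of these 11 markers, 10 were lower with Mkl1 siRNA than with control siRNA, with a median of -0.29 and Col1a1, a collagen gene, at -1.05, whereas with Y-27632 the median was 0.059 and 8 of 11 were above DMSO. Control siRNA was below DMSO by -4.28 for Lum and by -2.07 for Dcn, another matrix proteoglycan. Markers of other cell types were mostly below the filter, with 1 of 6 endothelial, 3 of 7 macrophage and leukocyte, 2 of 6 skeletal muscle and 0 of 2 erythroid genes reaching it. The control probe sets for ribosomal 18S RNA were lower with each treatment, with a median difference of -0.48 for Y-27632 and likewise -0.48 for Mkl1 siRNA. The part of adipocyte and stromal gene content and of RNA composition in the differences below was not tested. In bulk RNA, more cells of a type and more RNA per cell cannot be told apart.

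The promoter windows below, from 250 bases before to 50 after an annotated start (RefSeq, GRCm38.p6), are shown for Pfkfb3, the gene with the widest range over the arrays, for Hk2 and Pdk1, the genes that differed most between the control arrays, and for Pgk1 and Ldha, which were among the enzyme genes lower with Mkl1 siRNA. Windows of Hk1 and Pfkl, which were lower by slightly more, at -0.37 and -0.39, are not shown. Capitals mark ACGTG on either strand, the core of the hypoxia response element; on the other strand it reads CACGT, and the E box CACGTG holds it on both strands.
Pfkfb3, upstream start, chr2:11553880-11554179, minus strand: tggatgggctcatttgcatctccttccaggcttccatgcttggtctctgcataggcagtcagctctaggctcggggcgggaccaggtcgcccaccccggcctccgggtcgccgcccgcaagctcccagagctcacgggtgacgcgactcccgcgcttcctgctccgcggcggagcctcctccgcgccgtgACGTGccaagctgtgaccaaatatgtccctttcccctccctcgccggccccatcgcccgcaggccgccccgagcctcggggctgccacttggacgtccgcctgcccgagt
Pfkfb3, downstream start, chr2:11502041-11502340, minus strand: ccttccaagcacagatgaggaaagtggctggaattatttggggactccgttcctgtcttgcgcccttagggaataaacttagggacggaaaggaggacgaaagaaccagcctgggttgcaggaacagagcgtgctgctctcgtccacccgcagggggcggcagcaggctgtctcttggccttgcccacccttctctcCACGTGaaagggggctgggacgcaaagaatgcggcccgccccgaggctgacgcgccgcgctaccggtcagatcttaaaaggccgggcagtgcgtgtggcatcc
Hk2, chr6:82774405-82774704, minus strand: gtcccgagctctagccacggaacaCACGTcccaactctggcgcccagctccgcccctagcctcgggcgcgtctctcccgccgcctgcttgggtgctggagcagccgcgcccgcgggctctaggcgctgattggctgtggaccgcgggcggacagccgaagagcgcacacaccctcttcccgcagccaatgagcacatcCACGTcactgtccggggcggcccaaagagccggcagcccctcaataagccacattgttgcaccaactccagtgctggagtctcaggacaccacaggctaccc
Pgk1, chrX:106186850-106187149, plus strand: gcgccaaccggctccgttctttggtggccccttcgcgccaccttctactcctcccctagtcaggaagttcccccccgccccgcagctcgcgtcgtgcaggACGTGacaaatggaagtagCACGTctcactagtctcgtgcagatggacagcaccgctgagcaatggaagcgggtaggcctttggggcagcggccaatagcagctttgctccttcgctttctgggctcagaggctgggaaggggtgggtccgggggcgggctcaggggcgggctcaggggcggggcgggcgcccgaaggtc
Ldha, upstream start, chr7:46845554-46845853, plus strand: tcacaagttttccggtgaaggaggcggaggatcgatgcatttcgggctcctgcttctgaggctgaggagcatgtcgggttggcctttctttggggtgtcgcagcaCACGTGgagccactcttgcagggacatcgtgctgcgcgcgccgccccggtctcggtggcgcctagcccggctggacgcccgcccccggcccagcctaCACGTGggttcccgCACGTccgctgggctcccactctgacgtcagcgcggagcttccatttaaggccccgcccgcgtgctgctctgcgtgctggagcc
Pdk1, upstream start, chr2:71872974-71873273, plus strand: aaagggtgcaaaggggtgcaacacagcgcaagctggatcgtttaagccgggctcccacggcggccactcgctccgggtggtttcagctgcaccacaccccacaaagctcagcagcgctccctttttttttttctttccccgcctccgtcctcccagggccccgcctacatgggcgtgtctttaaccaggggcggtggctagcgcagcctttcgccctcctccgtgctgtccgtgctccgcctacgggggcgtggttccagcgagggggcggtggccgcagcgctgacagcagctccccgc

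All 9 genes had at least 1 window in the table, 15 windows in all. ACGTG was found in 7 of the 9 genes and in 9 of their 15 windows, against 21.8% of 27025 genes and 19.6% of 32851 windows. Both Pfkfb3 windows held it, and the downstream one held it as the full E box. The upstream Ldha window held the E box at 2 places and a further ACGTG. Pfkl and Pdk1 had no ACGTG in their windows, which says nothing of sequence outside them. CACGTG was found in 2 of 9 genes (Pfkfb3 and Ldha), against 8.09% of genes. The CArG box, the SRF binding motif (searched as CC, then A or T at each of 6 bases, then GG), was found in 1 of 9 genes, in the upstream Ldha window, against 1.81% of genes. These are letter matches in a window, not measured binding sites.

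ROCK inhibition was compared with its solvent first. With Y-27632, 1 of the 9 genes, Pfkfb3, was at least 2-fold above DMSO, against 1.27% of all analysed genes, and 0 were at least 2-fold below it, against 0.224%. The other 8 genes differed by -0.081 to 0.19. The median of the 9 differences was 0.075, against 0.0023 over all analysed genes, and 6 of 9 were above 0, against 50.4%. Apart from Pfkfb3, the glycolysis genes therefore stood within a narrow band around the DMSO array.

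Mkl1 knockdown was compared with the control siRNA in the same way. Pfkfb3 was again the single gene of the 9 at least 2-fold higher, against 1.79% of all analysed genes, and 0 of 9 were at least 2-fold lower, against 1.74%. The other 8 differences were spread more widely, from -0.55 to 0.47. The median was -0.33, against 0.00055 over all analysed genes, and 5 of 9 were below 0, against 49.8%. Hk2, Slc2a1 and Aldoa were on the higher side together with Pfkfb3, whereas Hk1, Pfkl, Pgk1, Ldha and Pdk1 were on the lower side. With the mean of all probe sets, which kept all 9 genes, this median was -0.13. It was 0.12 with the probe set of lowest mean, which kept 7 genes (without Pfkfb3 and Pdk1), and 0.23 when probe sets with names that mark several target transcripts were left out, which kept 6 (without Hk1, Aldoa and Ldha). In these last settings the probe sets and the genes counted changed together.

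The controls were also compared with each other. They differ in siRNA transfection, with 1 array each, so their difference does not measure noise alone. With control siRNA, 8 of the 9 genes were below DMSO, against 51.4% of all analysed genes, and the median was -0.16, against -0.0089. Pdk1 was the single gene at least 2-fold lower, against 1.09%, and 0 were at least 2-fold higher, against 0.957%. At 1.5-fold, Hk2 and Pdk1 were lower, against 4.09%. Because this comparison shares the DMSO array with the first and the control siRNA array with the second, its values are given beside theirs and were not correlated with them. With the controls exchanged, Y-27632 was at least 2-fold above control siRNA for 2 genes, Pfkfb3 and Pdk1, against 2.03%. In that comparison 8 of 9 genes were above 0, against 6076 of 11600 analysed genes. The median was 0.26, against 0.016 over all analysed genes. Against DMSO, Mkl1 siRNA was at least 2-fold higher for Pfkfb3 (2.73% of all analysed genes) and at least 2-fold lower for Pdk1 (3.23%), and 2 of 9 genes were above 0, against 49.1%.

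**Figure D1:**
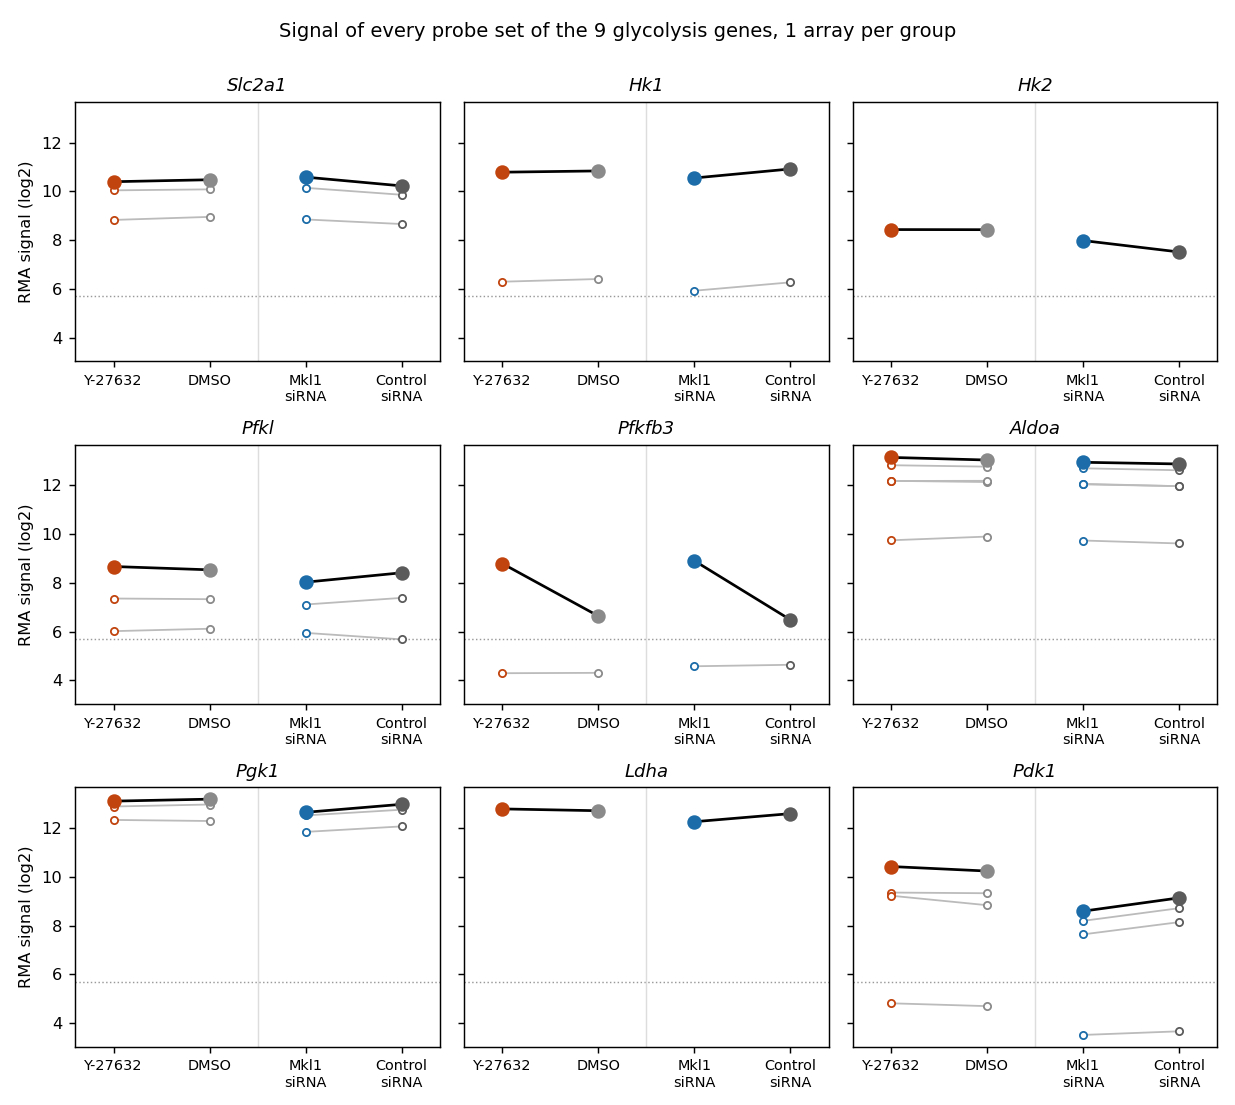
Log2 RMA signal (y axis) of all 24 probe sets of the 9 genes on the Y-27632, DMSO, Mkl1 siRNA and control siRNA arrays (x axis), 1 array per group and no error bars. Large filled points joined by black lines are the probe set that stands for the gene, small open points are its other probe sets, and the dotted line is the filter at 5.69; Pfkfb3 is high on both treated arrays in 1 probe set and below the filter in the other, and all Pdk1 probe sets are lower on both siRNA arrays.

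Glucose enters through transporters of the SLC2 family. Slc2a1 encodes GLUT1, the transporter of basal glucose uptake. Its signal was 10.40 with Y-27632 and 10.48 with DMSO, and 10.59 with Mkl1 siRNA and 10.23 with control siRNA. The Mkl1 siRNA array was the highest and the control siRNA array the lowest. Y-27632 differed from DMSO by -0.081 and Mkl1 siRNA from control siRNA by 0.36, and all 3 probe sets had these signs, from -0.13 to -0.041 and from 0.19 to 0.36. Control siRNA was below DMSO by -0.25, so that against DMSO the Mkl1 siRNA array differed by 0.11.

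Of 10 hexose transporter genes, 5 were analysed, and none of them was 2-fold from its control with either treatment. Slc2a4, which encodes the insulin-responsive transporter GLUT4 of fat and muscle, had a signal of 6.67 with Y-27632 against 5.93 with DMSO, and 6.43 with Mkl1 siRNA against 6.10 with control siRNA. These differences of 0.74 and 0.33 lay in a range of weak signal, and its second probe set differed by 0.27 and -0.088. Slc2a10 differed by 0.16 and -0.51, and Slc2a9 by -0.24 and 0.15.

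Hexokinases phosphorylate glucose and so trap it in the cell. Hk1, the housekeeping isoenzyme, had a signal of 10.79 with Y-27632 and 10.84 with DMSO, and 10.55 with Mkl1 siRNA and 10.92 with control siRNA. The Mkl1 siRNA array was the lowest of the 4. Y-27632 differed from DMSO by -0.052 and Mkl1 siRNA from control siRNA by -0.37, where the second probe set stood at -0.34.

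Hk2, the insulin- and hypoxia-responsive isoenzyme of muscle and fat, had another order of arrays. Its signal, from 1 probe set, was 8.44 with Y-27632 and 8.43 with DMSO, and 7.99 with Mkl1 siRNA and 7.52 with control siRNA. Both siRNA arrays lay below both arrays without siRNA. The Y-27632 difference was 0.0047 and the Mkl1 siRNA difference 0.47, whereas control siRNA differed from DMSO by -0.91, a ratio of 0.531 and rank 162 from the bottom of 11600 genes. Against DMSO the Mkl1 siRNA array differed by -0.45, so the side on which Hk2 stood depended on the control array used.

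Phosphofructokinase commits sugar to glycolysis. Pfkl, the liver-type subunit, had a signal of 8.68 with Y-27632 and 8.54 with DMSO, and 8.03 with Mkl1 siRNA and 8.42 with control siRNA. It was lowest with Mkl1 siRNA, by -0.39 against control siRNA, and differed by 0.14 with Y-27632. Its 3 probe sets ran from -0.39 to 0.27 with Mkl1 siRNA and from -0.099 to 0.14 with Y-27632, so they did not share a sign in either comparison. The other subunit genes, Pfkm (muscle type) and Pfkp (platelet type), differed by 0.20 and -0.11 with Mkl1 siRNA and by 0.056 and -0.21 with Y-27632, and the 3 Pfkp probe sets ran from -0.34 to 0.11 with Mkl1 siRNA.

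Pfkfb3 encodes a bifunctional enzyme whose kinase activity makes the fructose bisphosphate that activates phosphofructokinase, and it is known as a strong promoter of glycolysis. Its signal was 8.80 with Y-27632 against 6.64 with DMSO, and 8.91 with Mkl1 siRNA against 6.49 with control siRNA. Both treated arrays were high, both control arrays were low, and the groups were about as far apart in each pair. Y-27632 differed from DMSO by 2.15, a ratio of 4.45, and Mkl1 siRNA from control siRNA by 2.42, a ratio of 5.36. Pfkfb3 ranked 24 from the top in the first comparison and 25 in the second, and it was among the 0.707% of analysed genes, 82 in number, that were at least 2-fold higher in both. Control siRNA differed from DMSO by -0.15, and with the controls exchanged the treatment differences were 2.31 and 2.27.

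This result rests on 1 of the 2 Pfkfb3 probe sets. The second had signals of 4.30 with Y-27632 and 4.31 with DMSO, and 4.58 with Mkl1 siRNA and 4.64 with control siRNA, all below the filter, and differed by -0.015 and -0.061. The transcript region each probe set reads was not analysed here. With the mean of both probe sets Pfkfb3 differed by 1.07 and 1.18, still at least 2-fold.

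Its relatives were not 2-fold from their controls. Pfkfb2 and Pfkfb4, which encode sister enzymes, differed by -0.091 and -0.20 with Y-27632 and by 0.50 and -0.36 with Mkl1 siRNA. The other Pfkfb2 probe sets, all below the filter, ran from -0.15 to 0.055 with Mkl1 siRNA. Tigar, a phosphatase that lowers the same fructose bisphosphate, differed by 0.27 and -0.046, and Fbp2, a fructose bisphosphatase of muscle, by -0.10 and 0.37. Fbp2 lay below the filter on both siRNA arrays, at 5.53 with Mkl1 siRNA and 5.16 with control siRNA. Of 7 genes on this list, 5 were analysed, and Pfkfb3 was the single one past 2-fold with either treatment.

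**Figure D2:**
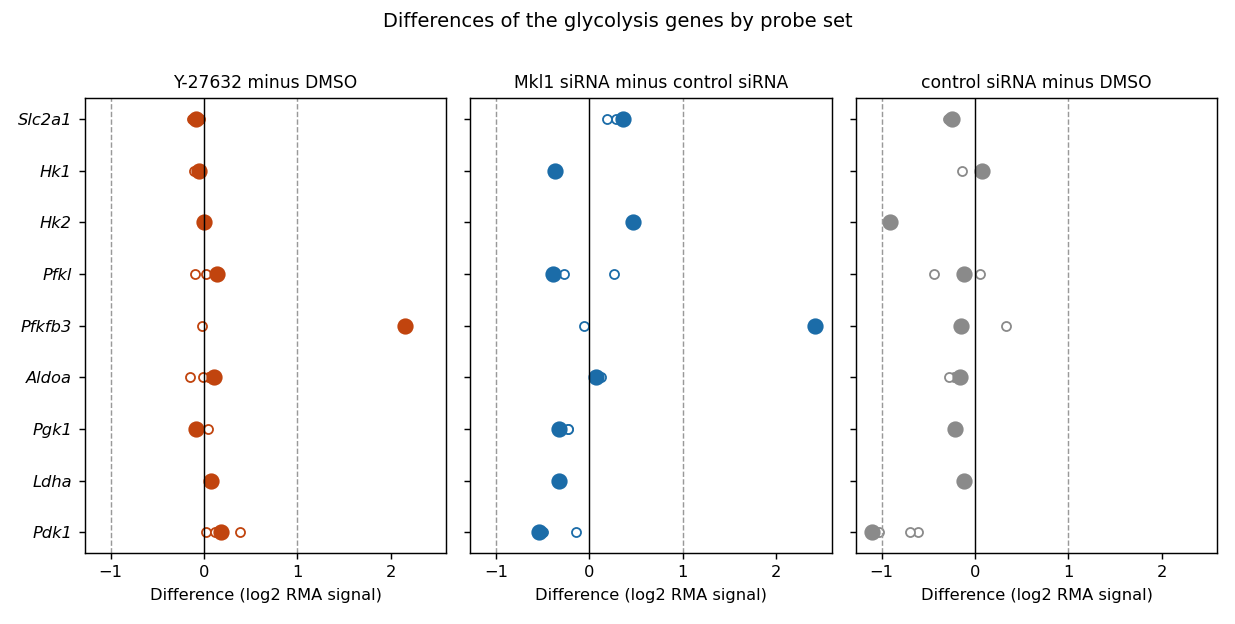
Difference in log2 RMA signal (x axis) for each of the 9 genes (rows) in 3 panels, for Y-27632 over DMSO, Mkl1 siRNA over control siRNA, and control siRNA over DMSO. Filled points are the probe set that stands for the gene, open points its other probe sets, and dashed lines mark 2-fold; Pfkfb3 stands at 2.15 and 2.42 in the treatment panels, and Hk2 and Pdk1 at -0.91 and -1.10 in the control panel.

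Aldoa, Pgk1 and Ldha act further down the route and had strong signals on every array. Aldoa, the aldolase that splits the phosphorylated hexose into trioses, had a signal of 13.15 with Y-27632 and 13.05 with DMSO, and 12.95 with Mkl1 siRNA and 12.88 with control siRNA. It had the narrowest range of the 9 genes, 0.27. All 5 probe sets were above control siRNA with Mkl1 siRNA, by 0.069 to 0.12, whereas with Y-27632 they ran from -0.15 to 0.11. Against DMSO all 5 were lower with Mkl1 siRNA, from -0.16 to -0.068, so the side depended on the control array used. All 5 carry names that mark possible binding of several transcripts.

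Pgk1 encodes phosphoglycerate kinase, which makes ATP. Its signal was 13.11 with Y-27632 and 13.19 with DMSO, and 12.65 with Mkl1 siRNA and 12.98 with control siRNA. The Mkl1 siRNA array was the lowest. The difference of -0.33 was shared in sign by all 3 probe sets, which ran from -0.33 to -0.23, whereas with Y-27632 they ran from -0.082 to 0.045.

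Ldha encodes the lactate dehydrogenase subunit that favours lactate formation. Its signal, from 1 probe set, was 12.79 with Y-27632 and 12.72 with DMSO, and 12.27 with Mkl1 siRNA and 12.60 with control siRNA. It too was lowest with Mkl1 siRNA, at -0.33 against control siRNA and -0.45 against DMSO, and differed by 0.075 with Y-27632. The ratio of Mkl1 siRNA to control siRNA was 0.797 for Pgk1 and 0.795 for Ldha, so these differences were small.

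The partner subunit gene Ldhb, which is not among the 9 genes, differed far more. Its signal was 8.73 with Y-27632 against 7.16 with DMSO, and 9.35 with Mkl1 siRNA against 7.57 with control siRNA. Both treated arrays lay above both control arrays. The differences of 1.58 and 1.78 were shared by all 4 Ldhb probe sets, from 1.09 to 1.79 with Y-27632 and from 1.74 to 2.71 with Mkl1 siRNA. On the glucose, glycogen, pentose phosphate, hypoxia and regulator lists, only Ldhb and Pfkfb3 were at least 2-fold higher in both comparisons. Ldhb was 1 of 6 analysed genes of its list and Pfkfb3 1 of 5. Of all 11600 analysed genes, 82 (0.707%) were at least 2-fold higher in both. Lactate leaves the cell through monocarboxylate transporters, of which Slc16a1 differed by 0.68 and -0.015, with its other probe set at 0.064 and 0.012.

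Most glycolytic enzyme genes were on the low side with Mkl1 siRNA. With it, the stromal markers were also mostly lower (10 of 11, median -0.29), and their part in this was not tested. Of 26 listed, 17 were analysed, 5 of them among the 9 genes, and 13 of the 17 were below control siRNA (median -0.19), against 49.8% of all analysed genes. Among the 17, Hk3, Hkdc1, Gapdhs, Pgam2 and Pklr had weak signals, between 5.58 and 6.62. All of these but Pklr were on the low side with Mkl1 siRNA. With Y-27632, 10 of 17 were below DMSO (median -0.052), against 49.4%, with 0 past 2-fold in either comparison. Without the glycolysis genes already described, 10 of 12 were below control siRNA with a median of -0.16. Pkm, the pyruvate kinase of most tissues, differed by -0.41 with Mkl1 siRNA and -0.18 with Y-27632, and Pgam1, a phosphoglycerate mutase, by -0.36 and -0.0020. Eno3, the muscle enolase, differed by -0.19 and -0.61 but was below DMSO by -1.03 with control siRNA. Pklr, another pyruvate kinase gene, was on the high side with Mkl1 siRNA, at 0.091, and differed by -0.28 with Y-27632. Its probe sets ran from -0.12 to 0.091 with Mkl1 siRNA. Gapdh was read by 3 array control probe sets, with differences between -0.29 and -0.26 for Mkl1 siRNA and between -0.15 and -0.052 for Y-27632. Several listed genes, such as Gpi1 and Eno1, were not analysed here.

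**Figure D3:**
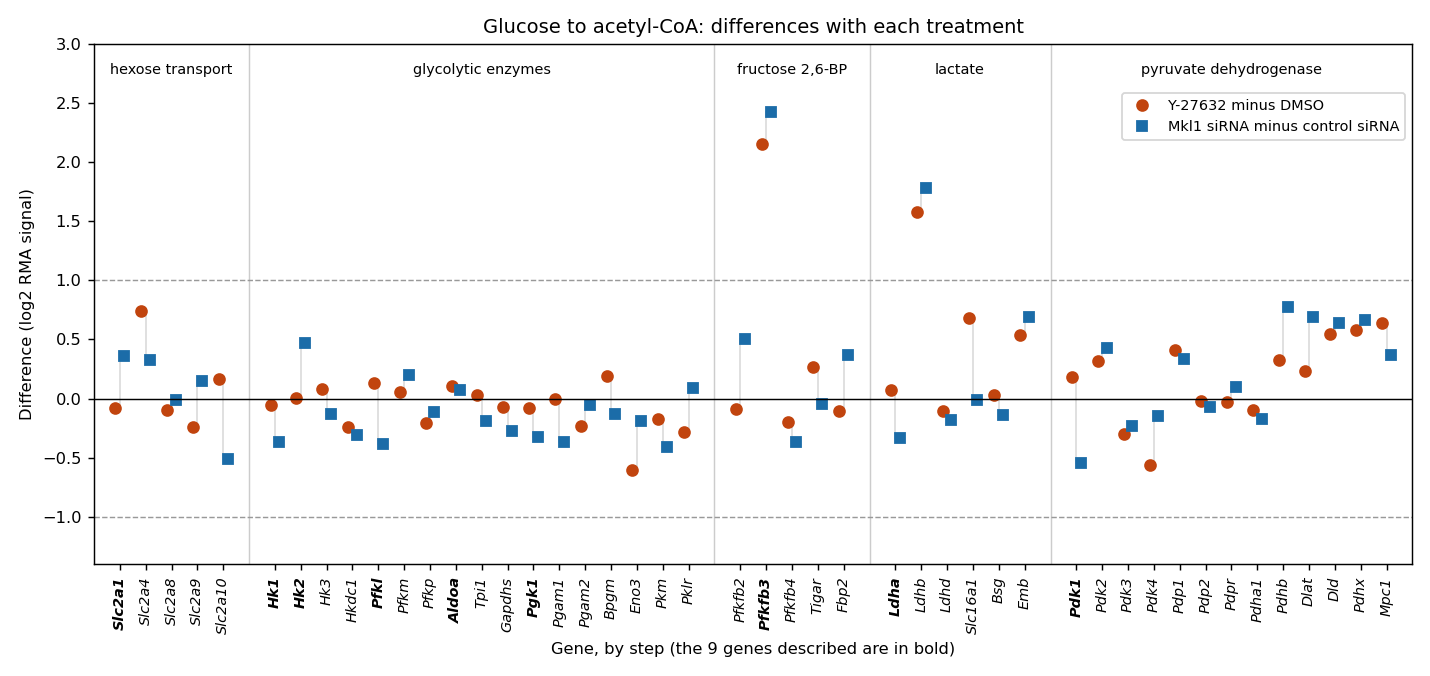
Difference in log2 RMA signal (y axis) for analysed genes from glucose uptake to acetyl-CoA (x axis, in 5 groups), with circles for Y-27632 over DMSO and squares for Mkl1 siRNA over control siRNA, 1 array per group. Dashed lines mark 2-fold, and Pfkfb3 and Ldhb are the genes beyond them; most glycolytic enzyme squares lie just below 0, and those of Pdhb, Dlat, Dld and Pdhx lie above it.

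Pdk1 encodes a kinase that phosphorylates and inhibits pyruvate dehydrogenase, and it is a known target of hypoxia-inducible factor 1. Its signal was 10.43 with Y-27632 and 10.24 with DMSO, and 8.60 with Mkl1 siRNA and 9.14 with control siRNA. Both siRNA arrays lay well below both arrays without siRNA. Y-27632 differed from DMSO by 0.19 and Mkl1 siRNA from control siRNA by -0.55, a ratio of 0.685, and all 4 probe sets shared each sign, from 0.027 to 0.39 and from -0.55 to -0.15. The -0.15 came from a weak probe set that lay below the filter on all 4 arrays. Control siRNA was itself below DMSO by -1.10, a ratio of 0.466 and rank 95 from the bottom, with probe sets from -1.10 to -0.61. Against the other control, Y-27632 differed by 1.29 and Mkl1 siRNA by -1.65, so Pdk1 was past 2-fold only when the arrays set against each other differed in siRNA transfection.

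The sister kinase genes did not follow this pattern. Pdk2 differed by 0.32 with Y-27632 and 0.43 with Mkl1 siRNA, Pdk3 by -0.30 and -0.23, and Pdk4, which is induced by fasting, by -0.56 and -0.15. With control siRNA, these 3 genes differed from DMSO by -0.051, 0.19 and 0.20.

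The enzyme complex that these kinases inhibit was described with pyruvate entry into the mitochondrion. Pdhb, the beta subunit of the first enzyme, stood at 0.32 in the Y-27632 comparison and 0.78 in that of Mkl1 siRNA. Dlat, the acetyltransferase core, differed by 0.24 and 0.69. Pdhx, which anchors the third enzyme, differed by 0.58 and 0.67, and Dld, the third enzyme itself, by 0.55 and 0.64, but its second probe set by 0.20 and -0.10. Pdha1, the alpha subunit that is phosphorylated, stood at -0.10 and -0.17. Mpc1, a subunit of the mitochondrial pyruvate carrier, differed by 0.64 and 0.37, and the partner subunit Mpc2 was not analysed here. Without Pdk1, 7 of 12 analysed genes of this list were above DMSO with Y-27632 (median 0.28) and 8 of 12 above control siRNA with Mkl1 siRNA (median 0.35), against 50.4% and 50.1% of all analysed genes, with 0 at least 2-fold from control. The sign counts were thus close to the share of all genes, but both medians lay above those of all analysed genes, 0.0023 and 0.00055. This is a description of 12 genes on 1 array per group.

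**Figure D4:**
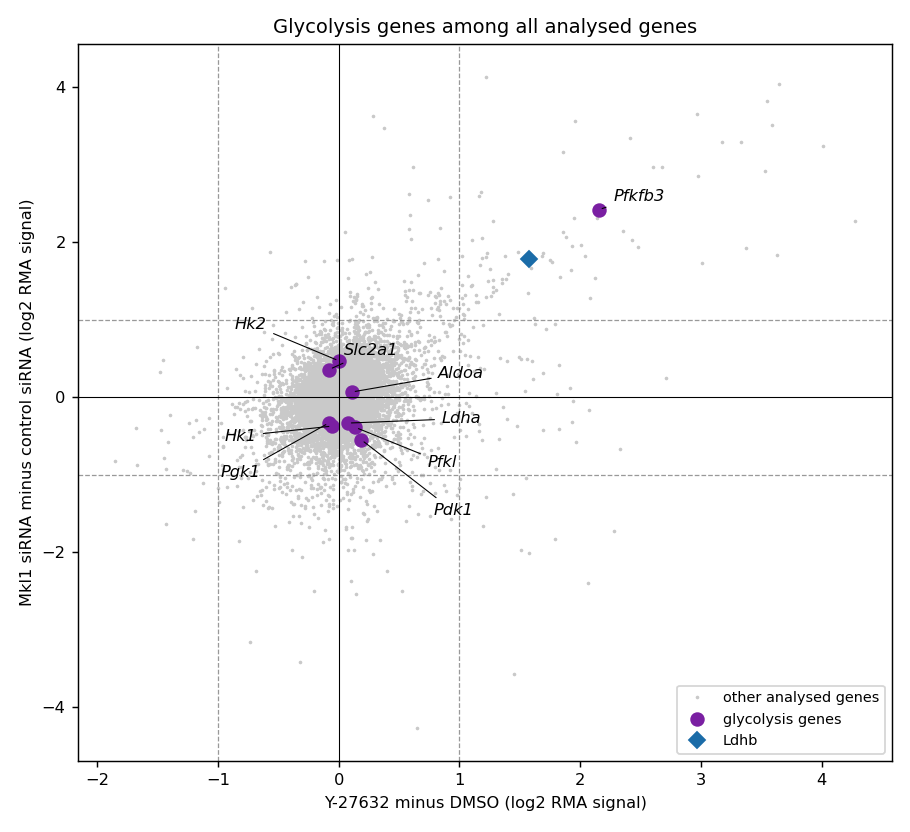
Each point is 1 of 11600 analysed genes, with Y-27632 over DMSO on the x axis and Mkl1 siRNA over control siRNA on the y axis (log2 RMA signal); these comparisons share no array. Purple points are the 9 glycolysis genes, the blue diamond is Ldhb and dashed lines mark 2-fold; Pfkfb3 and Ldhb lie in the upper right, and the other 8 glycolysis genes lie inside the dashed lines.

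Regulators of the route were described from a list of 15 genes, of which 14 were analysed. Hif1a, the inducible subunit of hypoxia-inducible factor 1, differed by 0.061 with Y-27632 and -0.27 with Mkl1 siRNA. Its 4 probe sets ran from -0.20 to 0.25 and from -0.62 to 0.018. Epas1, which encodes the related factor HIF-2alpha, had a signal of 8.34 with Y-27632 against 7.50 with DMSO, and 8.31 with Mkl1 siRNA against 7.06 with control siRNA. Both treated arrays were the higher ones, by 0.84 and 1.25, but the second, weak probe set stood at 0.38 and -0.096. Txnip, which restrains glucose uptake, had 11.38 with Mkl1 siRNA against 12.43 with control siRNA, a difference of -1.05, with its second probe set at -1.23, and differed by -0.12 with Y-27632. Epas1 was the single gene of this list at least 2-fold higher with Mkl1 siRNA and Txnip the single one at least 2-fold lower, against 1.79% and 1.74% of all analysed genes, and with Y-27632 none passed 2-fold. Against DMSO, Mkl1 siRNA differed by 0.81 for Epas1 and -0.73 for Txnip, so neither passed 2-fold there, whereas Y-27632 over control siRNA was 1.28 for Epas1.

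Hypoxia response genes outside glycolysis had a median of 0.12 with Y-27632 (10 of 16 above 0) and of 0.0083 with Mkl1 siRNA (8 of 16 above 0), against 50.4% and 50.1% of all analysed genes. With control siRNA, 11 of 16 were below DMSO, against 51.4%, with a median of -0.15. Vegfa, the vascular growth factor, differed by 0.56 and 0.17, but its other probe set by -0.11 and -0.17. Plod2, a collagen lysyl hydroxylase, differed by 0.49 and -0.49, and its other probe set by 0.63 and -0.48. Ero1a, an endoplasmic reticulum oxidase, differed by 0.15 and -0.87, with 3 probe sets from -0.22 to 0.20 and from -0.87 to -0.41, and was below DMSO by -0.60 with control siRNA. Ankrd37 differed by 0.14 and -0.79. At least 2-fold below DMSO with control siRNA were 2 of the 16, against 1.09% of all analysed genes, while 5 of 16 were above DMSO. These 2 were Egln3 at -1.22 and Ndrg1 at -1.13, with probe sets from -1.22 to -0.48 and from -1.86 to -0.58. Pdk1 and Hk2 stood at -1.10 and -0.91 in the same comparison, and a shared cause was not tested.

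The likeness of other genes to these profiles was measured as the Euclidean distance between mean-centred signals over the 4 arrays. Nearest to Pfkfb3 were Adhfe1 (distance 0.28), an alcohol dehydrogenase family gene, Slc36a2 (0.33), an amino acid transporter, Car5b (0.38), a mitochondrial carbonic anhydrase, Pcx (0.41), pyruvate carboxylase, and Rnf144b (0.44), a ubiquitin ligase. Adhfe1 had 8.58 with Y-27632 against 6.44 with DMSO, and 8.37 with Mkl1 siRNA against 6.06 with control siRNA. Pcx had 10.33 with Y-27632 against 8.47 with DMSO, and 10.74 with Mkl1 siRNA against 8.60 with control siRNA. All 5 of these genes were high on both treated arrays and low on both control arrays. They were chosen for nearness to the Pfkfb3 profile, so this shared pattern follows from the choice. Slc36a2 lay below the filter on both control arrays, at 5.09 with DMSO and 5.08 with control siRNA. Rnf144b did too, at 5.21 with DMSO and 5.22 with control siRNA. The mean profile of the 9 genes was flatter, at 0.33 with Y-27632, 0.059 with DMSO, -0.12 with Mkl1 siRNA and -0.27 with control siRNA, and Spef1, Dmxl2, 8430429K09Rik, Zbtb34 and Rgs19 lay nearest to it, at distances of 0.018 to 0.066. Pfkfb3 weighs heavily in this mean: over the 9 genes Y-27632 differed on average by 0.27 and Mkl1 siRNA by 0.15, and over the other 8 by 0.037 and -0.13. With 4 arrays, such nearness is a description only.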

How the data were processed

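Total RNA of DFAT cells was measured on 4 single-colour arrays, 1 per group, grouped by label. Each deposited value is a log2 signal from RMA, which the authors ran, per the submitters' processing notes; the RMA version and which arrays were normalised jointly are not given in the sources used. That values are log2 follows from their range (2.02 to 14.6), and array medians ran from 5.67 to 5.71. RMA compresses differences near background, and quantile normalisation hides differences in total RNA per cell.

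Probe sets were named from the platform annotation, with symbols updated through gene numbers (GRCm38.p6 gene table, names only). Probe sets with several symbols, among them 1 naming a glycolysis gene, and control probe sets were left out. Differences and counts were computed in Python 3.11.15 with pandas 2.3.3, statsmodels 0.14.6 (loess span 0.3) and matplotlib 3.10.9. The differences, 2-fold calls and nearest profiles were tested on simulated data with low noise and planted shifts past 2-fold. Smaller shifts, the choice of probe set, the filter, the loess and the motif search were not tested in this way.

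The 9 genes, the lists and the alternatives were chosen with earlier results of these data known. Named genes were the 9 genes, list genes at least 2-fold from control with either treatment or otherwise the 2 furthest from 0 per comparison, the 5 nearest profiles, and Mrtfa. Pfkm, Pfkp, Hk3, Hkdc1, Gapdhs, Pgam2, Slc16a1, Pdk2 to Pdk4, Dld, Pdha1, Hif1a, Egln3, Ndrg1, Gapdh, Lum, Dcn and Col1a1 were named after their values were seen. Protein sequences were not used here.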

Additional observations from a re-analysis of the deposited data

How the results depend on the processing

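No test, leave-one-out fit or replicate check was possible with 1 array per group, and no paired analysis was possible because each group has a single array. A difference was taken as moved when it shifted by more than 0.36, the SD of control siRNA minus DMSO over analysed genes. Those arrays also differ in siRNA transfection, so 0.36 does not measure noise alone. It exceeds the size of each main median of the 9 genes, so a median could change sign without counting as moved. The Y-27632 median, 0.075, did so. It was -0.099 with the probe set of lowest mean, and -0.039 without probe sets ending in _s_at, _x_at or _a_at. Subtracting the median difference, removing a loess trend, no filter and a filter at the 75th percentile (8.08) moved no median of the 9 genes by more than 0.36 and no count by over 1.5 times. With the mean of all probe sets, the control siRNA array had 0 genes at least 2-fold below DMSO. With the probe set of lowest mean, 7 genes passed the filter and Pfkfb3 was not among them: 0 were at least 2-fold higher with Y-27632 or with Mkl1 siRNA, 3 were above 0 with Y-27632, the Mkl1 siRNA median was 0.12, and with control siRNA 0 were above 0 and 0 at least 2-fold lower. Without probe sets ending in _s_at, _x_at or _a_at, 6 genes remained in the count: 3 were above 0 with Y-27632, the Mkl1 siRNA median was 0.23, and with control siRNA 0 were above 0 and 0 at least 2-fold lower. At 1.5-fold, 2 genes were lower with control siRNA, Hk2 and Pdk1. With the other control array, 2 genes were at least 2-fold higher with Y-27632, Pfkfb3 and Pdk1. Against DMSO, 2 genes were above 0 with Mkl1 siRNA, and 1, Pdk1, was at least 2-fold lower. The causes were not tested. Weak probe sets, such as the second ones of Pfkfb3 and Epas1, limit what can be read near background.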

Other observations

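Glycogen and pentose phosphate genes were described as branches from glycolysis. Gbe1, the glycogen branching enzyme, had a signal of 8.53 with Y-27632 against 7.71 with DMSO, and 9.35 with Mkl1 siRNA against 7.57 with control siRNA, differences of 0.82 and 1.78 on 1 probe set. Both treated arrays lay above both control arrays. It was the single glycogen gene of 8 analysed at least 2-fold higher with Mkl1 siRNA, against 1.79% of all analysed genes, and the list medians were 0.16 with Y-27632 and 0.017 with Mkl1 siRNA. Taldo1, the transaldolase of the pentose phosphate route, had 11.16 with Y-27632 against 10.84 with DMSO, and 11.85 with Mkl1 siRNA against 10.81 with control siRNA. Its difference of 1.04 with Mkl1 siRNA was the single one of 7 analysed pentose phosphate genes past 2-fold, against the same 1.79% for higher genes, and that list had medians of 0.016 and 0.17.

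Embigin (Emb), a partner protein of lactate transporters and chosen here after its values were seen, was higher on both siRNA arrays in the probe set that stands for it. Its signal was 8.10 with Y-27632 and 7.56 with DMSO, and 10.42 with Mkl1 siRNA and 9.73 with control siRNA. Control siRNA was above DMSO by 2.17, the opposite side from Pdk1 at -1.10 and Hk2 at -0.91, but the 3 Emb probe sets ran from 0.026 to 2.31.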
